A study of Mus musculus with 12 samples.

Results

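The genes described here encode the proteins of the ribosome and the factors that start and extend protein synthesis, and the measurement is the DNA methylation of their promoters in the colon epithelium of mice with or without induced Dnmt3b, an enzyme that adds methyl groups to unmethylated CpG sites. They were chosen by symbol alone: every gene in the deposited tables whose symbol starts with Rpl, Rps (followed by a digit, p or a), Eif or Eef, leaving out the Rps6k kinases. The rule found 140 of the 12098 genes in the tables: 48 Rpl, 28 Rps, 55 Eif and 9 Eef genes. Not all of them are parts of the translation machinery. Eif2c1 to Eif2c4 are older symbols of the 4 Argonaute proteins of RNA silencing, 4 members are kinases of Eif2 and 4 bind Eif4e, and Rps19bp1 encodes a binding partner of a ribosomal protein.

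Epithelial cells were isolated from the colon of 6 C57BL/6 mice on chow. In 3 mice Dnmt3b was induced by 0.5 g/l doxycycline in the drinking water for 3 months, with the water changed every 3 days, and 3 control mice drank regular water. The labels name neither the promoter that drives Dnmt3b nor the age or sex of the mice, and they do not say whether control mice carried the transgene. Doxycycline was given only to the induced mice, so the drug and the induction cannot be told apart. Reduced representation bisulfite sequencing was used: DNA is cut with MspI at CCGG, selected by size and treated with bisulfite, which leaves methylated cytosine unchanged. Each mouse gave a library of short fragments (40 to 120 nt) and a library of long fragments (120 to 220 nt), 12 libraries in all. A level is the mean methylation of the CpGs read in a gene's promoters, in percent, and a change is the induced mean minus the control mean, in percentage points. How many reads stand behind a level is unknown, so no counting interval can be given, and 0% can come from a handful of reads. Bisulfite reads hydroxymethylcytosine and unconverted cytosine as methylation too. The levels say nothing of RNA or protein.

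Ribosomes are made of a small subunit, which binds the mRNA and reads the codons, and a large subunit, which joins the amino acids. Initiation factors (Eif) bring the small subunit and the first tRNA to the start codon, and elongation factors (Eef) deliver the following tRNAs and move the ribosome along the mRNA. Nearly all cells need these genes, and most are active from CpG-rich promoters that are unmethylated in normal tissue. A few have relatives that are used in particular tissues, such as Eef1a2 in muscle and neurons.

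Among the 140 genes, 120 were listed in all 6 short-fragment libraries, 66 in all 6 long-fragment libraries, 56 in all 12 libraries, and 10 in all 6 of neither fraction. A single library listed 123 to 131 of them among short fragments and 77 to 91 among long fragments. No more than 1 promoter was listed for most members, and 12 had more than 1. The promoters of the genes that the results turn on are printed, and they differ in their number of CpGs. They come from RefSeq on GRCm38.p6 and cover 200 bases before the start of transcription and the first 25 bases of the transcript. Which window and genome build lie behind the deposited levels is not stated in the labels or headers, so the CpGs read need not lie in these bases. Each is written 5′ to 3′ on the strand of the gene, with every CpG in capitals. Rps6, from chr4:86857343-86857567 (minus strand), encodes a small subunit protein and stands for the members under 1% in all 6 short-fragment libraries. Rpl38, from chr11:114668380-114668604 (plus strand), had the largest rise past the threshold of a ribosomal protein. Rpl12, from chr2:32961512-32961736 (plus strand), had the largest gap between fractions in control mice. Eef1a1, from chr9:78481700-78481924 (minus strand), and Eef1a2, from chr2:181156991-181157215 (minus strand), are the paralogs of 1 elongation factor. Eef2, from chr10:81176431-81176655 (plus strand), rose among long fragments. Eif5a2, from chr3:28781077-28781301 (plus strand), rose among short fragments.
Rps6: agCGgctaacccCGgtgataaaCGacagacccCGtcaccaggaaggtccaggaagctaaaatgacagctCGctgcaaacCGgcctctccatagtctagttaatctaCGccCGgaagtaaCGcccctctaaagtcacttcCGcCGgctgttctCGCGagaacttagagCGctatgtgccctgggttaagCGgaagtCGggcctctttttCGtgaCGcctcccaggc
Rpl38: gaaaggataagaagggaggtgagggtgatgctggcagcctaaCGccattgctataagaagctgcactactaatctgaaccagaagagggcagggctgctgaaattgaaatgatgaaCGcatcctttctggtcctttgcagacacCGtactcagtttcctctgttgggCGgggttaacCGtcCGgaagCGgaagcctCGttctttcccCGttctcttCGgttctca
Rpl12: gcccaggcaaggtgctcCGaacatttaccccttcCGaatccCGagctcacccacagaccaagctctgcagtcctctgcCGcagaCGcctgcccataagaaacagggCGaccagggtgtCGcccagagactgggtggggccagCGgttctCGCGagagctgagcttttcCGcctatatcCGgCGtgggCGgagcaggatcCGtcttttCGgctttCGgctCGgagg
Eef1a1: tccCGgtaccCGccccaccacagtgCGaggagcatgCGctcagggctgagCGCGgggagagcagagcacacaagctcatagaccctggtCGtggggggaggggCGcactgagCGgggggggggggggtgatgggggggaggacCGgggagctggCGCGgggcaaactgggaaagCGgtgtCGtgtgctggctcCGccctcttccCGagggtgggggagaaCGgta
Eef1a2: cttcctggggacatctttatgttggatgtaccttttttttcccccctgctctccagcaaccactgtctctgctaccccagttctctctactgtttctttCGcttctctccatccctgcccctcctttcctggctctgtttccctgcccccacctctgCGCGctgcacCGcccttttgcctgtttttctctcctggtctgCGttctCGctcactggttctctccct
Eef2: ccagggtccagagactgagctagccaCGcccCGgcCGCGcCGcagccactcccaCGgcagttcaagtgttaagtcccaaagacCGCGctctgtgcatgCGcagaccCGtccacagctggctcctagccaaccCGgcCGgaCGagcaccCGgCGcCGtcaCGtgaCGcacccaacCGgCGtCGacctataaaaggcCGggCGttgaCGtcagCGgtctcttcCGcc
Eif5a2: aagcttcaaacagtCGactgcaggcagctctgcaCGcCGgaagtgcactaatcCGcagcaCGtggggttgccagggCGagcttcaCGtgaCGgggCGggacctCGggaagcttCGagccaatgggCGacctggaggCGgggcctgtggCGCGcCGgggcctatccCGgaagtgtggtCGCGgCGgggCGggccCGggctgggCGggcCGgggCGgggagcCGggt

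These promoters hold 18 CpGs (Rps6), 10 (Rpl38), 18 (Rpl12), 17 (Eef1a1), 6 (Eef1a2), 26 (Eef2) and 26 (Eif5a2). The median of all 32851 promoters in the RefSeq table was 5 CpGs for the same length, with quartiles of 2 and 16. The MspI site CCGG was found 4 times in Rps6, once in Rpl38 and in Rpl12, 2 times in Eef1a1, 6 times in Eef2, 6 times in Eif5a2 and not in the Eef1a2 window, against at least 1 in 47.2% of all promoters. CCGGAAG, the core of Ets-family sites, read on both strands and overlapping CCGG, was present in Rps6, Rpl38 and Eif5a2 and in 7.67% of all promoters. TATAAA, the TATA box, read on both strands, was present in Eef2 and in 10.6% of all promoters. Whether any of these sequences bears on the change was not tested. A count over all members is void, because the table held promoters for 108 of the 140 members (77.1%).

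Most ribosomal and translation promoters were almost unmethylated in control mice and stayed so in induced mice. Among short fragments the mean level over the 120 members went from 2.64% ± 0.293 in control to 5.07% ± 0.189 in induced mice (SD over n = 3 mice each). The same means over all 10027 genes tested were 4.19% ± 0.331 and 17.2% ± 1.10. The median change was 0.107 percentage points for the members and 0.500 for all genes. Both group means were under 1% for 85 members (70.8%), against 51.2% of all genes, and 96 members (80.0%) were under 5% in each of the 6 libraries, against 59.6% of all genes. Of the 112 members under 10% in control mice, 105 (93.8%) were still under 10% in induced mice and 1 (0.893%) reached 50% or more. Over all genes these shares were 75.8% and 14.1%.

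**Figure D1:**
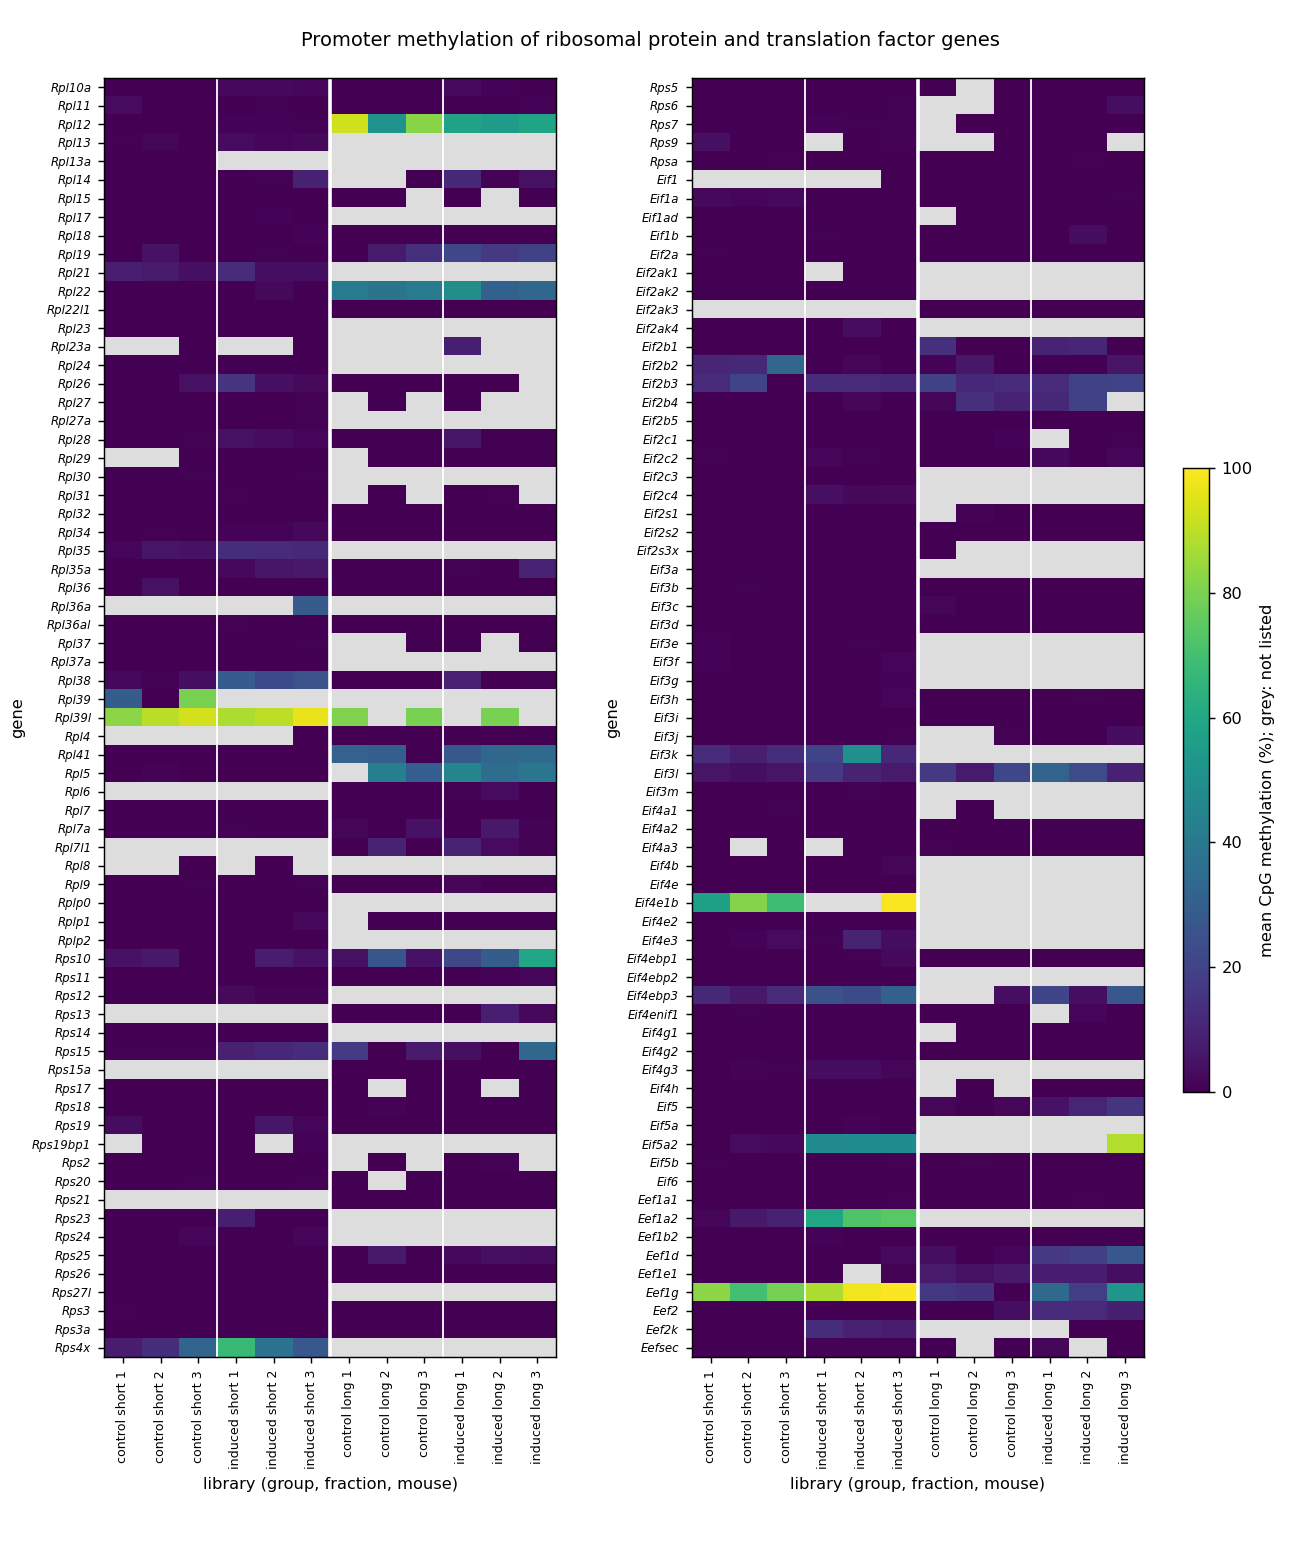
Methylation level (color, 0 to 100%) of 138 of the 140 genes (vertical axis) in each of the 12 libraries (horizontal axis), with grey where a library did not list the gene. Most cells are near 0% in both groups, and the bright exceptions include Rpl39l, Eif4e1b, Eef1g, Rpl12 among long fragments, and Eef1a2 and Eif5a2 in induced mice.

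Long fragments gave the same picture for the 66 members tested there. Their mean level went from 3.49% ± 0.551 in control to 5.53% ± 0.538 in induced mice (SD over n = 3 mice each), where all 6127 genes tested had 5.21% ± 0.379 and 19.4% ± 1.60. The median change was 0.118 points for the members and 0.943 for all genes. Of 59 members under 10% in control mice, 54 (91.5%) stayed under 10%, against 72.0% of all such genes. None of the 59 reached 50%, while 14.8% of all such genes did.

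**Figure D2:**
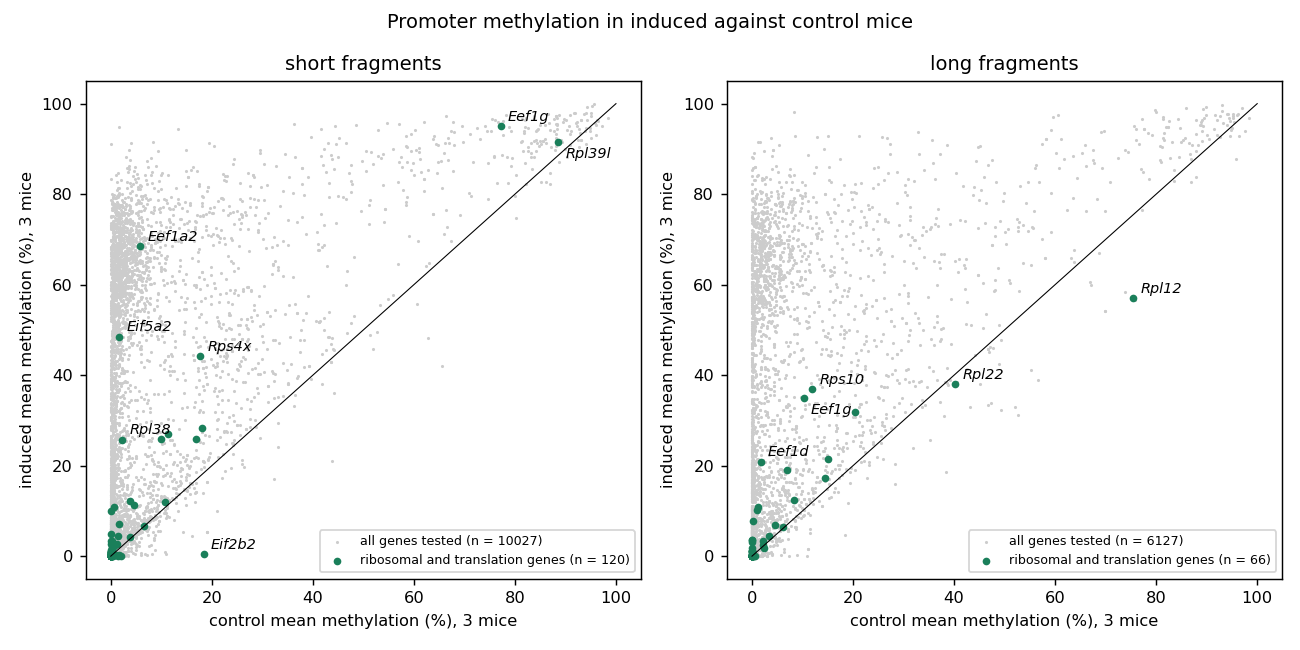
Control mean (horizontal axis, %) against induced mean (vertical axis, %) for all genes tested (grey) and the ribosomal and translation genes (green), with the line of equal levels. Most green points lie at the origin, and Eef1a2 at 68.5% and Eif5a2 at 48.5% are the highest in induced short fragments among members under 10% in control mice.

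Rises were counted with limma, a linear model fitted over all genes of a fraction, at an adjusted p under 0.05. Among short fragments 14 of 120 members rose (11.7%) and 1 fell (0.833%), beside percentages called of 27.6 higher and 0.0798 lower over all genes tested. Every induced mouse exceeded every control mouse for 23 members (19.2%) and below them for 2 (Eif1a and Eif2b2), beside 39.5% and 0.908% of all genes. Among long fragments 2 of 66 members rose (3.03%) and none fell, beside 23.2% higher and 0.0163% lower over all genes. At an unadjusted p under 0.05, limma had 5 long-fragment members higher (7.58%) and 0 lower, against 30.7% and 0.0326% of all genes. Every induced mouse exceeded every control mouse for 9 long-fragment members (13.6%), against 38.2% of all genes, and below them for none, against 0.277%. The shares of members that rose were thus below the shares of all genes in both fractions.

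The counts depend on single libraries. Without control mouse 1 or without control mouse 2 the short-fragment count of rises was 8, and 8 of these were among the 14 each time. Among long fragments no member passed without control mouse 1 or control mouse 2, and 1 passed without control mouse 3. Libraries were also centred: the deviation of each level from the gene's mean over the 6 libraries was taken, and the library's median deviation was subtracted. Then 14 members were higher and 42 lower among short fragments, and 2 higher and 29 lower among long fragments. A position of these genes below the median change is thus called a fall on that scale. The share of all genes called on that scale is not reported here, so these counts show no trait of the members. The 14 higher short-fragment members are not all those of the main fit, since the calls of Rps7, Rpl12 and Eef1g changed.

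**Figure D3:**
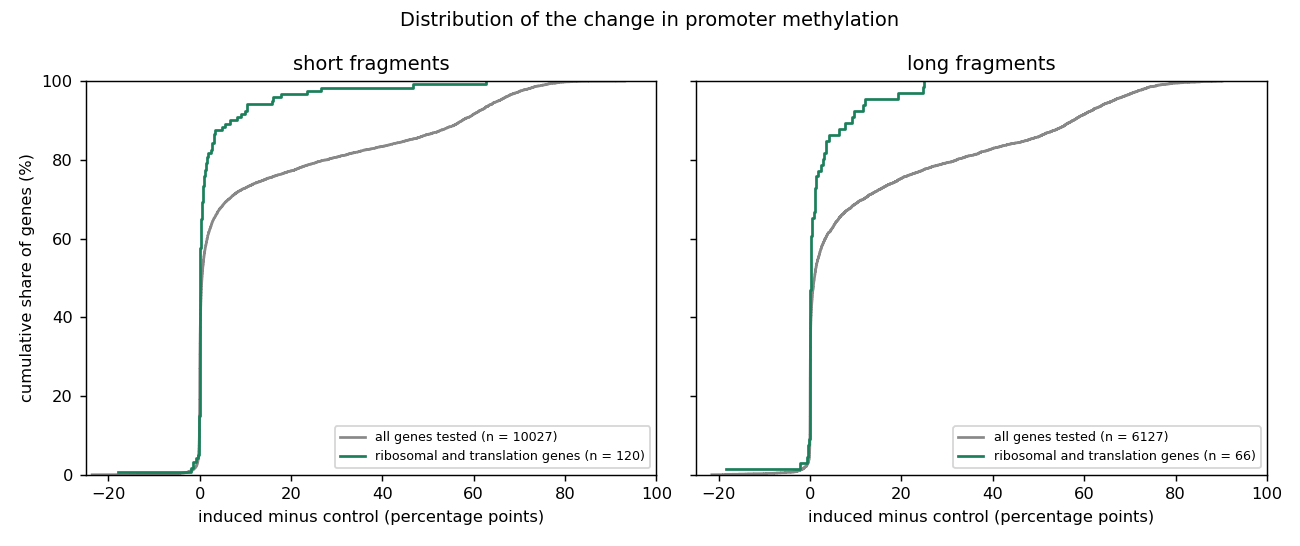
Cumulative share of genes (vertical axis, %) by change in methylation (horizontal axis, percentage points) for the ribosomal and translation genes (green) and all genes tested (grey). The green curve is nearly at its full height by 10 points. A rise over 10 points was seen in 7.5% of the members and 27.2% of all genes among short fragments. Among long fragments these shares were 7.58% and 31.2%, and falls are not counted.

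Proteins of the large subunit made up 36 of the genes tested among short fragments, and 5 of them rose. For this group and those that follow, the share of all genes that rose was 27.6% among short and 23.2% among long fragments. Both means were under 1% for 23 of the 36, and their median change was 0.162 points. Rpl38, a large subunit protein whose mouse mutants have skeletal patterning defects, had 2.24%, 0.72% and 3.82% in control mice 1 to 3 and 29.2%, 22.6% and 25.4% in induced mice 1 to 3. All 3 induced mice lay far above the controls, and the rise was 23.5 points (SE 1.99, limma adjusted p = 0.00134). Rpl35, which lies near the exit of the peptide tunnel, had 1.18%, 5.53% and 4.99% in controls and 12.97%, 12.2% and 11.2% in induced mice. The groups did not overlap, and the rise was 8.23 points (SE 1.38, limma adjusted p = 0.0124). On a log-ratio scale the adjusted p for Rpl35 was 0.0592.

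The other 3 large subunit rises were small. Rpl28 had 0%, 0% and 0.56% in controls and 4.58%, 3.38% and 1.94% in induced mice (limma adjusted p = 0.0403). Rpl10a had 0.08%, 0.03% and 0.37% in controls and 2.15%, 2.34% and 1.28% in induced mice (limma adjusted p = 0.0173). Rpl12, a protein of the ribosomal stalk base, had 0.04%, 0.01% and 0% in controls and 0.86%, 1.07% and 0.54% in induced mice (limma adjusted p = 0.0183). In each of the 3 genes every induced mouse was above every control mouse, yet all induced levels were under 5%. Each call was lost without control mouse 1, 2 or 3, and also without induced mouse 2 (Rpl28) or induced mouse 1 (Rpl10a and Rpl12), with limma adjusted p up to 0.139 for Rpl28, 0.0755 for Rpl10a and 0.0756 for Rpl12.

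The stalk protein Rplp0, which binds elongation factors on the ribosome, was at 0.35% in control mouse 2 and at 0% in the other 5 mice. Rpl5 and Rpl11, which carry the ribosomal RNA of the central protuberance and bind Mdm2 when ribosome assembly fails, were low among short fragments as well: Rpl5 had at most 0.96% in any mouse there, and Rpl11 had 2.86% in control mouse 1 and at most 0.54% in the others. Among long fragments Rpl11 had at most 0.89%.

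None of the 19 large subunit genes tested among long fragments rose. Rpl19 came nearest in size, with 0%, 7.14% and 13.9% in controls and 21.4%, 16.5% and 19.4% in induced mice. Its groups did not overlap, and the difference of 12.1 points did not pass (limma adjusted p = 0.125). Rpl41, the shortest ribosomal protein, had 31.3%, 29.8% and 0% in controls and 27.5%, 33.8% and 34.2% in induced mice. Control mouse 3 alone set its difference, which did not pass (limma adjusted p = 0.575).

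Rpl12, Rpl22 and Rpl5 were methylated among long fragments in control mice already. Rpl12 had 92.9%, 51.5% and 82.1% in controls and 57.4%, 55.4% and 58.2% in induced mice. The 3 induced mice were close together and within the range of the controls, and the difference of -18.5 points did not pass (limma adjusted p = 0.428). Without control mouse 2 it was -30.4 points (limma adjusted p = 0.0278). Its values were identical to those of its neighbour Lrsam1 in both fractions, so the level cannot be assigned to 1 of the 2 genes. Rpl22, which also binds RNA outside the ribosome, had 40.6%, 38.6% and 41.5% in controls and 49.3%, 31.0% and 33.8% in induced mice. The induced mice lay on both sides of the controls (change of -2.21 points, limma adjusted p = 0.831). Without induced mouse 1 the change was -7.84 points (limma adjusted p = 0.0368). Rpl5 was listed in 5 long-fragment libraries, with 42.7% and 30.01% in control mice 2 and 3 and 45.4%, 35.7% and 39.1% in induced mice. Among short fragments Rpl22 had at most 2.07% and Rpl5 at most 0.96%.

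Of 22 small subunit genes tested among short fragments, 2 rose, and both means were under 1% for 15. Rps15, which lies at the head of the small subunit, had 0.47%, 0.60% and 0.67% in controls and 9.09%, 11.3% and 12.5% in induced mice. Every control mouse was under 1% and every induced mouse above 9%, and the rise was 10.4 points (SE 0.946, limma adjusted p = 0.00166). In 1 fit over both fractions, which shares the spread with the long fragments, its adjusted p was 0.463. The long-fragment levels of Rps15 were widely spread, with 17.5%, 0% and 7.41% in controls and 4.10%, 0% and 33.3% in induced mice. Rps7 had 0.02%, 0% and 0% in controls and 0.82%, 0.72% and 0.48% in induced mice (limma adjusted p = 0.00981). Its rise of 0.667 points was the smallest of those that passed, and every induced mouse stayed under 1%.

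Other small subunit genes had low levels among short fragments and did not pass. Rps6, the main target of the S6 kinases, had at most 0.75% in any mouse. Rps14 had at most 0.13% and Rpsa, also known as the laminin receptor, at most 0.64%. Rps19, the gene most often mutated in human Diamond-Blackfan anemia, had 3.28%, 0% and 0.13% in controls and 0.17%, 5.98% and 1.83% in induced mice, with overlapping groups. Among long fragments Rps19 was at 0% in all 6 libraries.

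Among long fragments Rps10 showed the largest difference of any member, with 4.35%, 26.4% and 4.89% in controls and 21.8%, 29.6% and 59.3% in induced mice. Control mouse 2 overlapped the induced mice, and the difference of 25.02 points did not pass (limma adjusted p = 0.313). None of the 14 small subunit genes tested among long fragments rose.

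Eif3, the largest initiation factor, holds the mRNA on the small subunit, and none of its 13 genes tested among short fragments rose. Both means were under 1% for 11 of them, and Eif3a, its scaffold subunit, had at most 0.13% in any mouse. The exceptions were Eif3k and Eif3l. Eif3k had 12.5%, 8.24% and 13.02% in controls and 20%, 50% and 11.1% in induced mice. Induced mouse 2 alone stood far above the rest (change of 15.8 points, limma adjusted p = 0.456), and the values were identical to those of the neighbour Map4k1. Eif3l had 5.20%, 3.53% and 5.15% in controls and 16.7%, 10% and 7.19% in induced mice, which did not overlap and did not pass (limma adjusted p = 0.180). Among long fragments Eif3l had 16.7%, 7.13% and 21.5% in controls and 32.0%, 23.2% and 9.34% in induced mice, with overlapping groups.

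Among the 27 other initiation factor genes tested in short fragments, 2 rose and 1 fell, and 21 had both means under 1%. Eif5a2, a second gene for Eif5a, which carries the hypusine residue and helps ribosomes through difficult peptide bonds, had 0.10%, 2.74% and 2.25% in controls and 48.3%, 48.6% and 48.6% in induced mice. The 3 induced mice were almost equal, and the rise was 46.8 points (SE 0.773, limma adjusted p = 4.56e-05). Its paralog Eif5a, the form used in most cells, was not near that level in any library, with an induced mean under 1%. Among long fragments Eif5a2 was listed only for induced mouse 3, at 88.4%. The promoter printed for Eif5a2 holds 26 CpGs and 6 CCGG sites.

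Eif4g3, a form of the scaffold that joins the cap-binding protein to Eif3, had 0.12%, 0.96% and 0.47% in controls and 3.38%, 3.44% and 1.92% in induced mice. Its rise of 2.397 points passed (limma adjusted p = 0.0303) but was lost without any 1 of the control mice, induced mouse 1 or induced mouse 2, with limma adjusted p up to 0.113. Among short fragments Eif4e, which binds the mRNA cap, had at most 0.29% in any mouse, and Eif4g1 at most 0.35%. Eif2s1, the alpha subunit of Eif2 that stress kinases phosphorylate, was at 0.22% in control mouse 2 and at 0% in the other 5 in that fraction. Eif6, which keeps the large subunit from joining too early, had at most 0.06% among short and 0.09% among long fragments.

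Eif1a was the only member that fell. Its product helps the small subunit scan for the start codon. It had 2.02%, 1.82% and 2.27% in controls and 0%, 0.01% and 0.09% in induced mice. All 3 controls lay near 2% and all 3 induced mice near 0%, and the level fell by 2.003 points (SE 0.133, limma adjusted p = 0.000718). It kept this call with each library left out, and lost it when genes with a mean under 1% were left out of the fit (limma adjusted p = 0.210). Its long-fragment levels were near 0% in both groups, with a change of 0.200 points.

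Eif2b2, a subunit of the factor that recharges Eif2 with GTP, was also lower in every induced mouse. It had 10.9%, 11.4% and 32.9% in controls and 0%, 1.39% and 0% in induced mice. The groups did not overlap, but control mouse 3 stood well above the other controls and the difference of -18.0 points did not pass (limma adjusted p = 0.156). Without control mouse 3 the difference was -10.7 points (limma adjusted p = 0.00473), and on the log-ratio scale the adjusted p was 0.0106. Eif2b3, another subunit, had 11.8%, 20.3% and 0% in controls and 12.6%, 12.1% and 11.4% in induced mice, with overlapping groups. The remaining Eif2b subunits tested among short fragments, Eif2b1, Eif2b4 and Eif2b5, had no mouse above 1.67%.

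None of the 6 Eif3 genes and none of the 15 other initiation factor genes tested among long fragments rose. Eif5, which makes Eif2 hydrolyse its GTP at the start codon, had 1.75%, 0% and 1.36% in controls and 4.84%, 10.5% and 15.5% in induced mice. Every induced mouse was above every control mouse, and the difference of 9.24 points did not pass (limma adjusted p = 0.112). It passed without induced mouse 1 (limma adjusted p = 0.0260) and on the log-ratio scale (0.0401).

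Regulators that share the Eif name included 1 riser among the 4 Eif4e binding genes tested in short fragments. Eif4ebp3, which holds Eif4e back from the cap complex, had 11.1%, 6.88% and 11.8% in controls and 24.8%, 22.3% and 30.9% in induced mice. The groups did not overlap, and the rise was 16.0 points (SE 2.81, limma adjusted p = 0.0143), with adjusted p of 0.0554 without control mouse 1 and 0.0534 without control mouse 2. Its relative Eif4ebp1 had at most 2.07% among short and 0.12% among long fragments. Long-fragment libraries listed Eif4ebp3 at 3.67% in control mouse 3 and at 20.8%, 3.77% and 27.0% in induced mice.

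Of the 4 Argonaute genes tested, Eif2c4 rose. It had 0.26%, 0.08% and 0.19% in controls and 4.12%, 2.17% and 2.45% in induced mice, a rise of 2.74 points (limma adjusted p = 0.0269). The call was lost without any 1 of the control mice or induced mouse 3, with limma adjusted p up to 0.101. Of the Eif2 kinases, Eif2ak2 and Eif2ak4 were tested among short and Eif2ak3 among long fragments, and none rose. Eif2ak3, the kinase of endoplasmic reticulum stress, was listed only among long fragments, at 0.31% in induced mouse 1 and 0% in the other 5.

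Elongation factors held the member with the largest rise. Of 8 tested among short fragments 3 rose, beside 27.6% of all genes, and both means were under 1% for 5. With 8 genes this share cannot be set apart from that of all genes. This group includes Eef2k, which is a kinase. Eef1a2, the form of the tRNA-delivering factor that replaces Eef1a1 in muscle and neurons, had 1.23%, 7.03% and 9.22% in controls and 58.7%, 72.4% and 74.3% in induced mice. The lowest induced mouse was far above the highest control mouse, and the rise was 62.7 points (SE 5.16, limma adjusted p = 0.00123). Eef1a1, the form used in most cells, had 0.14%, 0.06% and 0.04% in controls and 0%, 0.03% and 0.71% in induced mice. Its groups overlapped (change of 0.167 points, limma adjusted p = 0.661). The printed promoters of the pair differ in CpG number, 17 in Eef1a1 and 6 in Eef1a2. Long-fragment libraries did not list Eef1a2.

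Eef2k, the kinase that switches off Eef2, had 0%, 0% and 0.23% in controls and 12.98%, 9.13% and 7.74% in induced mice. The rise of 9.87 points passed (SE 1.48, limma adjusted p = 0.00847), with no overlap between groups. Eefsec, which brings selenocysteine to the ribosome, was at 0% in all 3 control mice and at 1.02%, 1.11% and 0.70% in induced mice. This rise of 0.943 points also passed (limma adjusted p = 0.00548). Eef2 itself, which moves the ribosome by 1 codon, was at 0% in all 6 short-fragment libraries.

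**Figure D4:**
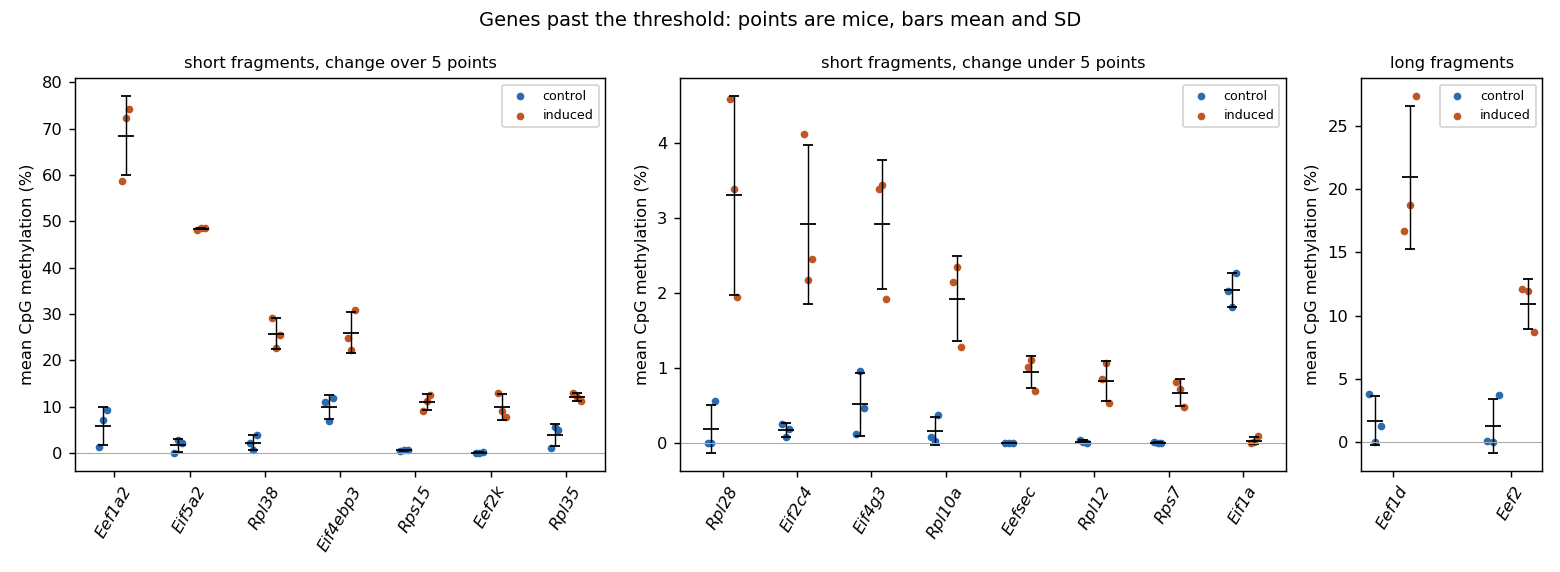
Methylation level (vertical axis, %) of each gene past the threshold (horizontal axis) in each control mouse (blue points) and induced mouse (orange points), with mean and SD of 3 mice. Induced means run from 0.673% (Rps7) to 68.5% (Eef1a2) among short-fragment rises, and Eif1a is the gene with lower induced points.

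Both members that rose among long fragments were elongation factors, of 6 tested in that group, beside 23.2% of all genes. With 6 genes this share cannot be set apart from that of all genes. The group includes Eef1e1, which was classed as a regulator, as Eef2k was. Eef2 had 0.07%, 0% and 3.74% in controls and 12.1%, 11.96% and 8.68% in induced mice, a rise of 9.65 points (SE 1.58, limma adjusted p = 0.0157). Eef1d, the subunit that recharges Eef1a with GTP, had 3.82%, 0.02% and 1.31% in controls and 16.7%, 18.8% and 27.3% in induced mice, a rise of 19.2 points (SE 3.27, limma adjusted p = 0.0175). Groups did not overlap in either gene. The Eef1d call was lost without control mouse 1, 2 or 3 (limma adjusted p = 0.0618, 0.0775 and 0.0782). The Eef2 call was lost without control mouse 1, control mouse 2, induced mouse 1 or induced mouse 2 (limma adjusted p = 0.0700, 0.0690, 0.0511 and 0.0592). Eef1d had values identical to those of its neighbour Tigd5, so the rise cannot be assigned to 1 of the 2 genes.

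Eef1g, the structural subunit of the same exchange complex, was highly methylated among short fragments in control mice. It had 82.5%, 70.04% and 79.0% in controls and 87.5%, 98.0% and 99.6% in induced mice. The groups did not overlap, and the difference of 17.9 points did not pass (limma adjusted p = 0.0665), though it did without induced mouse 1 (limma adjusted p = 0.0408). Among long fragments it had 16.3%, 14.3% and 0.22% in controls and 34.7%, 18.2% and 52.2% in induced mice, again without overlap and not past the threshold (limma adjusted p = 0.215).

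Paralogs used mainly in germ cells were methylated in control mice as well. Rpl39l, a retrogene copy of Rpl39 known from testis, had 82.7%, 89.8% and 93.0% in controls and 87.9%, 90.1% and 96.8% in induced mice among short fragments. It had the highest control mean of the members tested and its groups overlapped (change of 3.05 points, limma adjusted p = 0.640). Long-fragment libraries gave Rpl39l 80.8% and 80.0% in control mice 1 and 3 and 80.0% in induced mouse 2. Eif4e1b, an oocyte form of the cap-binding protein, had 56.9%, 81.4% and 68.9% in control mice and 98.9% in induced mouse 3, the only induced library that listed it.

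Of the members on the X chromosome, where methylation follows X inactivation and so the sex of the mouse, 4 were found, and the levels depend on the mouse. The mean over all X-linked genes in the short-fragment libraries was 36.2%, 5.21% and 34.6% in control mice 1 to 3 and 56.01%, 54.3% and 53.1% in induced mice, so control mouse 2 stood apart. Rps4x, a small subunit protein, had 7.46%, 13.2% and 32.5% in controls and 67.4%, 38.1% and 27.1% in induced mice. Control mouse 3 overlapped the induced mice, and the difference of 26.5 points did not pass (limma adjusted p = 0.283). Eif2s3x, a subunit of Eif2 known to escape X inactivation, was at 0% in all 6 short-fragment libraries. Rpl39 had 29.5%, 0% and 80.0% in control mice and was listed in no induced library. Rpl36a was listed only in induced mouse 3, at 28.6%. Leaving the X-linked members out kept the count of 14 rises among short fragments.

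Short and long fragments of the same promoter could be compared for the 56 members in all 12 libraries, since they cover different CpGs of the same mice. In 1 limma fit over 5309 genes the change differed between fractions for 4 members, 3 with a larger value among long fragments, beside percentages called of 2.64 with the change larger among long and 2.07 among short fragments. Rpl38 changed by 20.3 points more among short fragments (long minus short -20.3, limma adjusted p = 0.00841). Its long-fragment levels were 0.11%, 0% and 0% in controls and 9.09%, 0% and 0.42% in induced mice, so only induced mouse 1 stood out there. For Eef1d the change was 18.4 points larger among long fragments (limma adjusted p = 0.0137), and its short-fragment change was 0.840 points. For Eef2 it was 9.65 points larger among long fragments (limma adjusted p = 0.00824). For Eif1a the difference was 2.20 points (limma adjusted p = 0.000798), which is the short-fragment fall. The call for Eif1a held with each mouse left out, both of its libraries together. Rpl38 and Eef1d lost it without control mouse 1, 2 or 3 (limma adjusted p up to 0.0804 and 0.107) and on the log-ratio scale (0.361 and 0.0855), and Eef2 without control mouse 1 or 2 (limma adjusted p up to 0.0730).

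**Figure D5:**
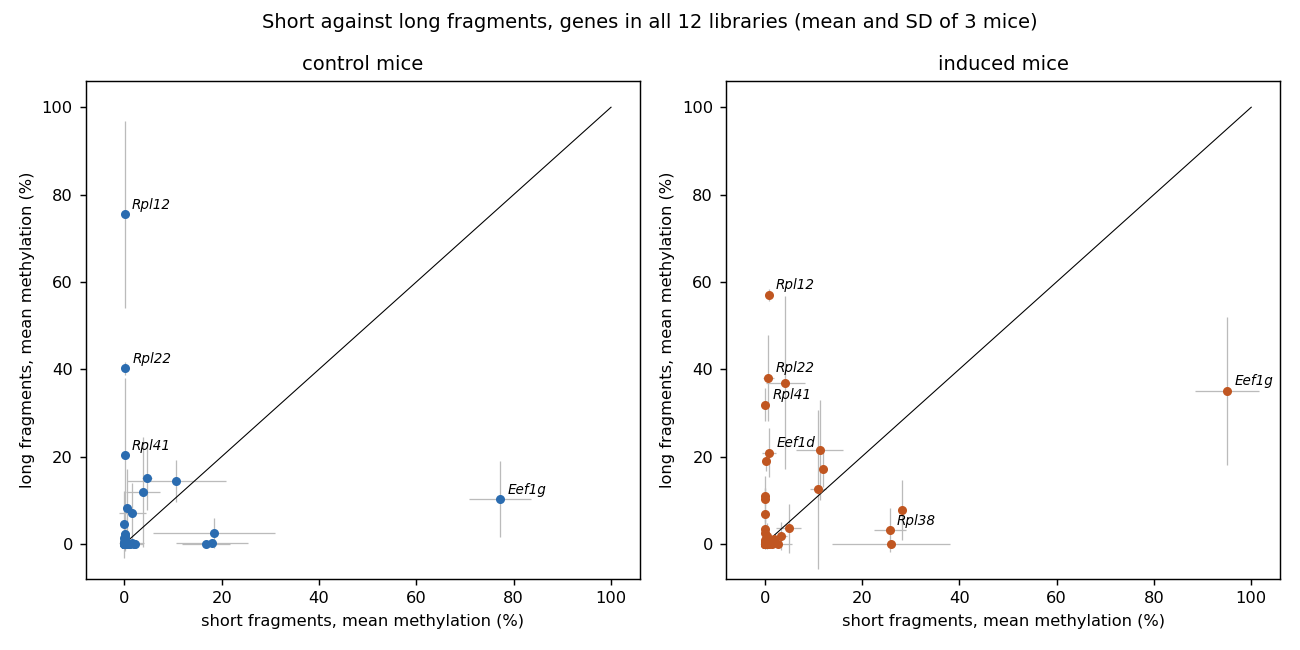
Mean level among short fragments (horizontal axis, %) against long fragments (vertical axis, %) for the 56 genes in all 12 libraries, in control (left) and induced mice (right), with SD of 3 mice as grey bars and the line of equal levels. Rpl12 and Rpl22 lie near 0% among short and at 75.5% and 40.2% among long fragments in control mice, and Eef1g lies at 77.2% among short and 10.3% among long.

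The levels of some members in control mice differed between fractions too. Not every member past the threshold is named, and no share of members is given to set against all genes. This contrast was added after the values had been seen. In the same fit Rpl12 was higher among long fragments by 75.5 points (limma adjusted p = 0.000448) and Rpl22 by 40.1 points (limma adjusted p = 0.000206), beside 4.14% of all genes. Eef1g was lower among long fragments, with a difference of -66.9 points (limma adjusted p = 0.000906), as was Eif1a with -1.997 (limma adjusted p = 6.90e-05), beside 2.90% of all genes. A gene can thus read as methylated in 1 fraction and unmethylated in the other.

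Values identical to those of a neighbouring gene, as overlapping or shared promoters give, were found for 20 members among short and 13 among long fragments. Besides Eef1d, Rpl12 and Eif3k these included Rpl35a with Iqcg. Rpl35a, a large subunit protein, had 0.31%, 0% and 0% in controls and 2%, 5.77% and 6.95% in induced mice among short fragments, without overlap and not past the threshold (limma adjusted p = 0.0766).

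Other genes of protein synthesis were counted from lists of names. Of 27 aminoacyl-tRNA synthetases, which charge the tRNAs, 2 rose and none fell among short fragments (3 higher and 0 lower at an unadjusted limma p under 0.05), with a median change of 0.107 points. Rars, for arginine, rose from 8.27% ± 4.76 to 21.0% ± 1.77 (SD, n = 3 each, limma adjusted p = 0.0302), and the mitochondrial Vars2 from 0% to 1.61% ± 0.615 (limma adjusted p = 0.0263). Of 73 ribosome biogenesis genes 3 rose, with a median change of 0.0533 points: Rrp9, which binds the U3 small nucleolar RNA, from 3.95% ± 4.77 to 20.1% ± 5.49 (limma adjusted p = 0.0437), Polr1d, a polymerase I subunit, from 2.18% ± 0.624 to 7.93% ± 1.48 (limma adjusted p = 0.00894), and Mdn1 from 2.80% ± 0.280 to 3.68% ± 0.0681 (limma adjusted p = 0.0176).

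Of 54 translation regulators and further ribosomal genes 9 rose, with a median change of 0.122 points. The largest rises were those of 3 genes for RNA-binding proteins: Igf2bp1 rose from 2.19% ± 1.38 to 77.7% ± 6.42 (limma adjusted p = 0.000349), Cpeb1 from 2.06% ± 0.925 to 75.8% ± 6.77 (limma adjusted p = 0.000401) and Lin28 from 2.11% ± 1.65 to 67.3% ± 9.57 (limma adjusted p = 0.00119). Among long fragments 0 of 17 synthetases (0 at an unadjusted limma p under 0.05), 1 of 35 biogenesis genes (Mak16, from 0.03% ± 0.01 to 3.22% ± 0.599) and 3 of 33 regulators rose. Those 3 were Cpeb1 (to 83.3% ± 4.81), Igf2bp1 (to 73.5% ± 12.3) and Rheb, an activator of mTOR (from 0% to 3.68% ± 1.19). All 3 lists had a lower share of rises than all genes tested, as the ribosomal and translation genes did.

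Cell type markers were read for the labelled tissue. Of the colon epithelium genes listed in all libraries of a fraction, 1 of 7 rose among short fragments (Cldn4, from 13.7% ± 8.54 to 64.2% ± 13.6) and 0 of 8 among long fragments, and the mean level of the list was 2.36% ± 1.55 and 3.26% ± 0.359 in control mice. Of stromal, muscle and endothelial genes 5 of 5 rose among short and 2 of 2 among long fragments, and of blood cell genes 1 of 1 and 2 of 2. Over all genes tested 27.6% rose among short and 23.2% among long fragments. Most stromal and blood genes looked up were not tested, and Des, Vim and Ikzf1 count in both fractions. In control mice these lists had means of 9.73% ± 0.730 and 2.36% ± 0.905 for stroma and 1.80% ± 0.774 and 6.70% ± 1.99 for blood. The levels are of DNA methylation and give no share of cells, and the part of other cell types in the results was not tested.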

How the data were processed

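Reduced representation bisulfite sequencing gave 12 libraries from 6 mice. Values were deposited by the authors, per the file headers, as a mean CpG methylation fraction per gene, keyed by Gene ID and symbol. Aligner, genome build, promoter window, any coverage filter and the bisulfite conversion were not given in the sources used here. No read counts or coverage came with the fractions, so depth and counting error are unknown and thinly read genes count like well read ones. Fractions were multiplied to percent. Samples were grouped by treatment and fragment size from the labels.

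For each fraction, limma 3.58.1 (R 4.3.3, lmFit and eBayes on percent) was fitted over all genes listed in all 6 libraries, 10027 short and 6127 long, with Benjamini-Hochberg adjustment over all of them and a threshold of 0.05; no value was imputed. Zero variances were offset by limma. Intervals and SEs come from this fit. The difference between fractions was an interaction over the 5309 genes that all 12 libraries listed, taking the mouse as random block (consensus correlation 0.0674). The fit was also run on simulated data that gave both groups the control SD. The median SD of the members was 0.0864 in control and 0.254 in induced mice among short fragments. Among long fragments it was 0.0402 and 0.261, and the simulation does not cover such unequal spread. Figures used Python 3.11.15 with pandas 2.3.3, numpy 2.4.6 and matplotlib 3.10.9.

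Members were matched to a RefSeq gene table of GRCm38.p6 by Gene ID (139 of 140), used for chromosome X, current symbols and neighbours. Genes named are all members past the threshold, the 8 largest changes per fraction, members with a control mean of 20% or more, X-linked members, 20 fixed examples of roles where listed, and up to 3 genes per further list. Some genes that this rule names are not reported here. Further members are named after their values were seen (Rpl35a, Eif2b1, Eif2b3, Eif2b4, Eif2b5, Eif5a and partly listed genes). The members and all lists were chosen with earlier results of these data known. Mice of the groups share replicate numbers but are different animals, and same-numbered mice did not deviate together, so the main tests have no replicate block. Alternatives were leaving out each library, the replicate block, a log-ratio scale (log2 of the methylated over the unmethylated percent, each plus 1), a minimum mean of 1%, centred libraries, promoter values, genes listed in at least 2 libraries per group, identical genes fitted once, eBayes with trend, 1 fit over both fractions, core members and members off chromosome X. For the difference between fractions, both libraries of a mouse were left out together. No coverage minimum could be tried.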

Additional observations from a re-analysis of the deposited data

Results flagged for a closer look

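Of the 56 members in all 12 libraries, 4 passed the interaction test for a different change in the 2 fractions (limma, adjusted over 5309 genes), beside 2.64% of all genes with a larger change among long and 2.07% among short fragments. The change was larger among long fragments by 18.4 percentage points for Eef1d and by 9.65 points for Eef2. For Eif1a the difference was 2.20 points, with a fall among short fragments and levels near 0% among long fragments. For Rpl38 it was -20.3 points, the rise being larger among short fragments. Eef1d has the values of its neighbour Tigd5, so the 2 genes cannot be told apart. The calls for Eef1d and Rpl38 were lost without control mouse 1, 2 or 3 (limma adjusted p up to 0.107 and 0.0804) and that for Eef2 without control mouse 1 or 2 (up to 0.0730). No cause was tested for any of the 4.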

How the results depend on the processing

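Among short fragments 14 members rose and 1 fell. The count of rises was 8 to 14 with 1 library left out (8 without control mouse 1 or 2), 6 with a replicate block, 8 with genes of a mean under 1% left out (30 members tested) and 3 in 1 fit over both fractions (56 members tested). The count of falls was 1 to 2 with 1 library left out, 2 on the log-ratio scale, 0 with the minimum mean, 42 with libraries centred and 2 in 1 fit over both fractions. Among long fragments 2 rose and 0 fell. The count of rises was 0 to 3 with 1 library left out, 0 with the replicate block, 5 on the log-ratio scale, 4 with trend and robust variance and 4 in 1 fit over both fractions, and that of falls 0 to 1 with 1 library left out and 29 with libraries centred. The 4 differences between fractions became 1 to 7 with both libraries of 1 mouse left out (1 without control mouse 1, 2 without control mouse 2, 7 without induced mouse 1). Of the 15 short-fragment calls, 9 were kept whichever library was left out, and neither of the 2 long-fragment calls was. Shares of all genes called under each alternative are not reported here. The counts therefore do not show whether members gain or lose calls more than other genes.

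The replicate block is not part of the design, since same-numbered control and induced mice had correlations of their deviations of 0.0736, 0.00398 and -0.0498 among short and 0.00102, 0.0366 and 0.0247 among long fragments.

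Some members that had not passed changed sign. With libraries centred on their median deviations, short-fragment changes became -0.229 points for Eef1a1, -0.342 for Eif4e, -0.289 for Eif4g1, -0.376 for Eif6 and -0.212 for Rps6. Long-fragment changes became -0.368 for Eef1a1, -0.398 for Eif2ak3, -0.465 for Eif4ebp1, -0.468 for Eif6, -0.152 for Rpl11 and -0.352 for Rpsa. These sign changes follow from subtracting a larger median deviation in induced libraries. With 1 library left out, short-fragment changes ran from -1.25 to 0.18 for Rpl11, -0.0583 to 0.00667 for Rps14, -0.0517 to 0.0133 for Eif3a, -0.298 to 0.0217 for Rpsa, -0.01 to 1.03 for Rpl22, -0.137 to 2.77 for Rps19, -0.065 to 0.29 for Eef1a1, -0.0333 to 0.102 for Eif4e and -0.0467 to 0.328 for Rps6, and long-fragment changes from -7.84 to 1.29 for Rpl22 and -0.025 to 0.25 for Rpsa. Over 57 single-gene results and 722 alternatives, 620 kept direction and side of the threshold, 61 were weaker, 19 stronger and 22 changed sign. For other changes the cause was not tested. Depth is unknown and limits every level near 0%, and with 3 mice a group, small rises under 5% rest on few libraries.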
